A study of Mus musculus with 6 samples.

Results

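Regions of H3K4me3 at gene ends that carried no MafA peak were examined in MIN6 cells. MIN6 is a mouse tumour line of pancreatic beta cell origin that secretes insulin. A region was the union of overlapping H3K4me3 peaks with at least 1 peak from each H3K4me3 library. It was kept when it was narrower than 4000 bp, when its midpoint lay within 1 kb of either end of an annotated gene, and when it shared no base with a peak of either MafA library. These rules kept 4480 of the 10392 narrow gene-end regions and of the 15573 H3K4me3 regions in all. The members were selected on the peak calls of all 4 libraries, so their lack of MafA peaks and their H3K4me3 enrichment are descriptions. The study profiled MIN6 cells by CUT&RUN, which cuts DNA free with a nuclease tethered to antibody-bound chromatin and sequences it. Each sample had 500000 MIN6 cells permeabilised in 0.01% digitonin, and the labels name no treatment other than the antibody. MafA was the cells' own protein, detected by its antibody in 2 samples. The H3K4me3 antibody served as the positive control in 2 samples and IgG as the negative one in 2, and the IgG libraries were not used here. The labels do not say that replicates came from separate cultures, so the spread between them may be technical.

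H3K4me3 is the trimethylation of lysine 4 of histone H3. It is laid down around the starts of active genes, mostly at promoters rich in CpG dinucleotides, and wide domains of it are known at genes that define a cell type. MafA is a basic leucine zipper factor that binds MAF recognition elements, which contain the letters TGCTGA, and it activates the insulin gene and other genes of mature beta cells. The members are therefore narrow marks at gene ends of a beta cell line, mostly gene starts, at which no MafA peak was called.

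The promoters below show what such a gene start looks like in sequence. They are from RefSeq, build GRCm38.p6, each from 250 bases before the annotated start to 50 bases after it, written 5′ to 3′ on the gene's strand. Capitals mark TGCTGA and TGACTCAGC (MAF letters), CCGGAAG (ETS), CCAAT and GGGCGG (the Sp1 box), read on either strand. The first 4 are the protein-coding starts with the best mean rank of H3K4me3 enrichment among members for which the promoter table has an entry. The start of Rcor1, which encodes a corepressor of the REST complex, lies at chr12:111039117-111039416, plus strand. The start of Fyttd1, an mRNA export adaptor, lies in the region named for its neighbour Rubcn (chr16:32877534-32877833, plus strand). Pheta1, which acts in endosome trafficking, starts within chr5:121848747-121849046, plus strand. Lman2l, a cargo lectin of the early secretory pathway, starts within chr1:36445222-36445521, minus strand.
Rcor1: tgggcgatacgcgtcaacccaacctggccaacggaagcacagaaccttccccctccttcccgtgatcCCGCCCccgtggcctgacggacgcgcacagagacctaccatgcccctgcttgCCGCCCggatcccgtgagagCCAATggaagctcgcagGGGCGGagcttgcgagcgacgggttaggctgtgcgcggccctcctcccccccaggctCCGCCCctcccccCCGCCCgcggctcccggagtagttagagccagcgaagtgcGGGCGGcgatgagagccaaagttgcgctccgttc
Fyttd1: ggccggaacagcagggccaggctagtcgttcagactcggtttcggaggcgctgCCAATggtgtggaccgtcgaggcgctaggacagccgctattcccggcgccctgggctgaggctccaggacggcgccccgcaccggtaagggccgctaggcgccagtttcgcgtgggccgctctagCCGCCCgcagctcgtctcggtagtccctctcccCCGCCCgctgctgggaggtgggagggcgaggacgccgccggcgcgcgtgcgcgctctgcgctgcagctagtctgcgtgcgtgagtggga
Pheta1: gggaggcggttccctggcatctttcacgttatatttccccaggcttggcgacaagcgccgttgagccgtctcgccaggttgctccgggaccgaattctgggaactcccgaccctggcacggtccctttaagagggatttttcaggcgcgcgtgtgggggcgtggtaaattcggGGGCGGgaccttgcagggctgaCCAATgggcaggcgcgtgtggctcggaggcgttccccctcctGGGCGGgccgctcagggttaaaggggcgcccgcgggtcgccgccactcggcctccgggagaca
Lman2l: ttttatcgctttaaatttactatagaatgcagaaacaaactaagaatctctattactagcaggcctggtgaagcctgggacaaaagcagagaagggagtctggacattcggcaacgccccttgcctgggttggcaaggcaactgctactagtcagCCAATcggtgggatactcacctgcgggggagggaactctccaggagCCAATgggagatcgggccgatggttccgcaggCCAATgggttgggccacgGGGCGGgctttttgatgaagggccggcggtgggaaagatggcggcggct

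For contrast, Desi2 (chr1:178187167-178187466, plus strand) and Dnajc3 (chr14:118937682-118937981, plus strand) are strongly marked starts whose regions did overlap a MafA peak. C1qbp (chr11:70982977-70983276, minus strand) and Mrpl53 (chr6:83108858-83109157, plus strand) are member promoters that hold TGACTCAGC or TGCTGAC although no MafA peak was called there, the first 2 found among the named members.
Desi2: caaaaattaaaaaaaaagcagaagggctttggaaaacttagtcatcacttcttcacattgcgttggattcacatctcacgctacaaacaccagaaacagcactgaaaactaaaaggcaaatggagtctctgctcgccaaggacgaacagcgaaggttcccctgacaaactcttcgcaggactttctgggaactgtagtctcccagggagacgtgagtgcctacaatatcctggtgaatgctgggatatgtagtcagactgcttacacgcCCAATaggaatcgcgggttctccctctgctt
Dnajc3: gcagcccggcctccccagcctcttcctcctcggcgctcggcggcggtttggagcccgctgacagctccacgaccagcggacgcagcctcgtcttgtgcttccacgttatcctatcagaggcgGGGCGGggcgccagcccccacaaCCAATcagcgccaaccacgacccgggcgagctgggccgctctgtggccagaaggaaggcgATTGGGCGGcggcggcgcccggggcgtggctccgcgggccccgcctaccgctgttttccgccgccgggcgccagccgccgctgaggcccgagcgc
C1qbp: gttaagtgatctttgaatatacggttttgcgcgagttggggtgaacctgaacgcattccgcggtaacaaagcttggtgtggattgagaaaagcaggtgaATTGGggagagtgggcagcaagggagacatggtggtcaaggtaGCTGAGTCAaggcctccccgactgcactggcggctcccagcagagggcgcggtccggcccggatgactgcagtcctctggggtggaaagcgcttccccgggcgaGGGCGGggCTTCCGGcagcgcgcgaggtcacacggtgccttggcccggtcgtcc
Mrpl53: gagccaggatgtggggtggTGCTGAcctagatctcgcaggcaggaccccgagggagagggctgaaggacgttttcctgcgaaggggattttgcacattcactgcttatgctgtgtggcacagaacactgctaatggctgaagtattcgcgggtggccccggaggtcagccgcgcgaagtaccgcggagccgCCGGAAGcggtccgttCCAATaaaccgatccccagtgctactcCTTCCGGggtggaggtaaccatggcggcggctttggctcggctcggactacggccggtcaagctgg

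Desi2 and Dnajc3 hold no MAF letters in this window, whereas C1qbp and Mrpl53, chosen for such letters, hold 1 TGACTCAGC and 1 TGCTGA. Rcor1 has 31 CpG dinucleotides and 6 GGGCGG boxes in its window, and Lman2l has 14 CpG dinucleotides and 3 CCAAT boxes. A match is a run of letters and not a measured binding site.

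There were 16020 and 16904 H3K4me3 peaks in replicates 1 and 2, and 33013 and 42747 MafA peaks. The authors' fold enrichment, the ratio of the signal at a peak's summit to the modelled local background, had medians of 14.8 and 13.4 in the H3K4me3 lists and 5.03 and 4.82 in the MafA lists. Sequencing depth per library is unknown from these lists. As a check of the cells, markers were looked up by any overlap of an H3K4me3 region with the 1 kb around a gene end, a looser rule than the midpoint rule for members. Of 12 beta cell markers, 11 had such a region and 7 had one at least 4000 bp wide. Ins1 was the exception. Of 18 markers of other cell types, 3 had such a region (Gcg, Irx2 and Cd68).

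Of the narrow gene-end regions, 43.1% were free of MafA peaks (95% Wilson interval 42.2 to 44.1%, which covers counting error only). The other 5912 regions overlapped a MafA peak, 3404 in both MafA lists, 2287 in that of replicate 2 only and 221 in that of replicate 1 only. The boundary thus rested mainly on the longer list of replicate 2. When that list was left out 6767 regions were free, and when the list of replicate 1 was left out 4701 were free. At least 4000 bp wide were 263 further gene-end regions, and 41 of them were free of MafA peaks (15.6%, interval 11.7 to 20.5%). Narrow regions away from gene ends were free in 1604 of 4636 cases (34.6%, interval 33.2 to 36.0%).

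Distances from members to the nearest MafA peak spanned a wide range. Their median was 17281 bp, with quartiles of 7412 and 35405 bp. No background distance was computed, so these values do not say whether members lay unusually far from MafA peaks. A MafA peak lay within 1 kb of 155 members (3.46%) and within 10 kb of 1460 (32.6%), and 232 had none within 100 kb. The member at Naaladl2, which encodes a peptidase-like protein, lay 1 bp from a MafA peak, and those at Arhgdia and Sptbn4 lay 8 bp away. At the other extreme, the region at the zinc finger gene Zik1 was 2285 kb from the nearest MafA peak. By width, the members just inside the limit were Gm40191 (3991 bp), Rsrc2 (3986 bp) and Baz1b (3956 bp), and the MafA-free regions just outside it were H2ax (4011 bp), D130020L05Rik (4012 bp) and Nkx2-2os (4028 bp). By position, 107 members had their midpoint 900 to 1000 bp from a gene end, and 86 further MafA-free narrow regions lay 1000 to 1100 bp from one.

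Members carried strong H3K4me3. Their fold enrichment had a median of 16.4 in replicate 1 (range 2.08 to 67.1, quartiles 9.76 and 22.7) and of 15.2 in replicate 2 (range 2.33 to 46.3, quartiles 9.59 and 19.9). The overlapped regions had medians of 17.7 and 16.2. The log2 ratio of the medians, members over overlapped regions, was -0.11 in replicate 1 and -0.09 in replicate 2, with a mean of -0.10 (exact two-sided sign permutation p = 0.5 over the 2 libraries, the smallest this design allows). Members were therefore slightly lower in both libraries, and the quartiles of both classes overlapped widely. The mean of -0.10 became 0.025 when MafA replicate 2 was left out.

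Fold enrichment joins a signal and a background, and each was solved from the deposited fold enrichment and p-value. The signal at the summit, on the scale at which each library was scored, had member medians of 359 and 327, against 427 and 380 in overlapped regions. Its mean log2 ratio was -0.23 (-0.25 and -0.22 in the replicates, exact permutation p = 0.5). The background was also lower at members, at 20 in both libraries against 23 and 22, with a mean log2 ratio of -0.17 (exact permutation p = 0.5). Over all widths together, lower background therefore accompanied lower signal, and the part of either in the MafA calls was not tested.

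Width moved with both enrichment and MafA overlap. Members had a median width of 1788 bp (quartiles 1260 and 2346), against 2061 bp in overlapped regions. The free share was 53.9% among regions of 251 to 1410 bp, 46.1% at 1411 to 1935 bp, 39.1% at 1936 to 2504 bp and 33.4% at 2505 to 3999 bp. The part of width itself in the MafA overlap was not tested. In the narrowest class members had lower fold enrichment than overlapped regions, at 7.22 against 8.55 in replicate 1 and 7.44 against 8.85 in replicate 2. In the widest class they had higher values, at 23.2 against 21.9 and 19.6 against 18.9. Summit signal followed the same pattern. In replicate 1 members had 68.0 against 108 in the narrowest class and 744 against 684 in the widest. In replicate 2 the values were 68.8 against 109 and 612 against 577. Member signal was also higher in both classes between. For fold enrichment, the mean log2 ratio over the 3 wider classes was 0.053, and with all 4 classes weighted equally it was -0.022.

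**Figure D1:**
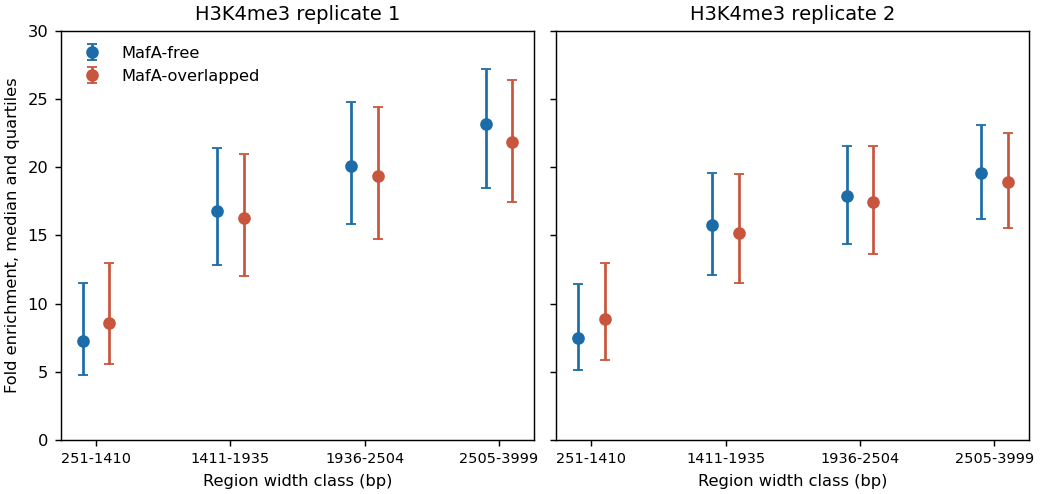
Median H3K4me3 fold enrichment (linear axis, bars from the lower to the upper quartile) of MafA-free and MafA-overlapped narrow gene-end regions in 4 width classes, one panel for each H3K4me3 library. Members lie lower than overlapped regions in the narrowest class, 7.22 against 8.55 in replicate 1, and slightly higher in the 3 wider ones.

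Ranked by H3K4me3 enrichment, and divided into 4 groups of equal size, narrow gene-end regions were free of MafA in 50.3% of the weakest group. The other 3 groups, in order of enrichment, were free in 41.0%, 40.6% and 40.6%, so above the weakest group the free share hardly moved.

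The 2 H3K4me3 libraries gave the members like values. Spearman's rho across the 4480 members was 0.936 for fold enrichment and 0.992 for summit signal. This is a description across regions, whose libraries share cells, assay and perhaps a control, and not a test. The median log2 ratio of replicate 2 to replicate 1 was -0.12, with the 5th and 95th percentiles at -0.56 and 0.44, and 3094 members were lower in replicate 2. Summits lay a median of 23 bp apart, and within 200 bp in 92.5% of members. Exceptions were few: Kat2a, a histone acetyltransferase gene, had fold enrichments of 47.3 and 19.4, Ybx2, a germ cell RNA-binding protein gene, 22.8 and 9.35, and Lpar6, a lysophosphatidic acid receptor gene, 2.65 and 7.86.

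**Figure D2:**
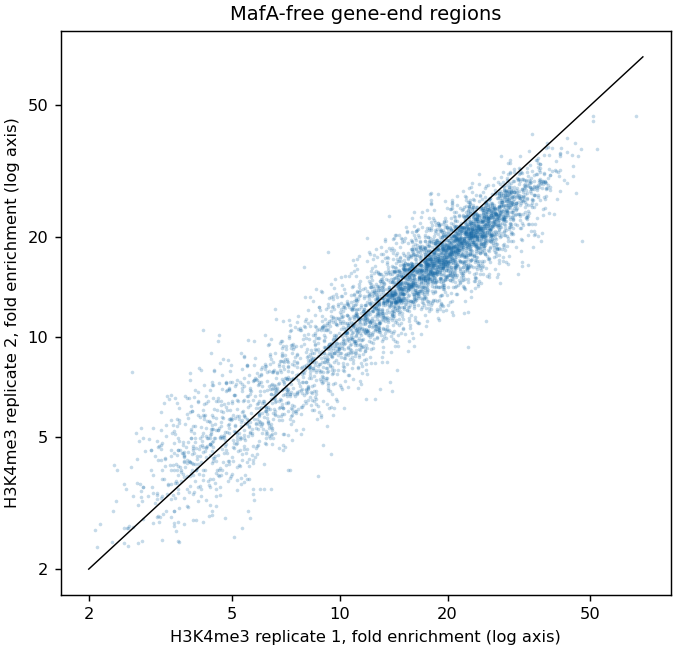
Fold enrichment of each of the 4480 members in H3K4me3 replicate 1 (x) and replicate 2 (y), both on log axes, with the line of equal values. Points follow the line, with Spearman's rho at 0.936, and the strongest members lie below it.

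The 10 members with the best mean rank differed in function. Rcor1 (chr12:111037773-111041625) had fold enrichments of 67.1 and 46.3 and lay 8412 bp from a MafA peak. Coro1b (chr19:4147881-4149904), an actin regulator, had 50.7 and 46.3, and the region between Rubcn, a regulator of autophagy, and Fyttd1 (chr16:32876353-32879630) had 52.2 and 36.9. All 3 lay far above the member medians of 16.4 and 15.2, which follows from their choice by rank in these same libraries. Bcl9l (chr9:44482436-44484171), a beta-catenin coactivator, had 47.1 and 36.8. Utp11, which acts in small ribosomal subunit assembly, had 43.1 and 40.0. Also among the 10 were Wdr45b (46.2 and 35.3), Pheta1 (43.0 and 36.1), Lman2l (44.5 and 35.4) and the long noncoding RNA Gm46766 (50.7 and 44.9). The best ranked overlapped regions reached as high, with Hgsnat, a lysosomal acetyltransferase gene, at 76.1 and 59.3 and Desi2 at 45.5 and 46.5. The lowest members, Alkal2 (2.11 and 2.33), Rmrp (2.32 and 2.42) and Ttc30a1 (2.08 and 2.63), were barely above background in both libraries.

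The members were marks of gene starts. Where strand was known, the nearest gene end was the start in 3394 members (97.1%) and the far end in 102. The start was nearest in 96.4% of overlapped regions, and for 984 members the tables used gave no strand. An annotated start of the promoter table lay inside 3299 members (73.6%), against 75.8% of overlapped regions. Of those 3299, 2655 held starts on 1 strand and 644 (19.5%) on both, against 20.6% of overlapped regions. At starts on 1 strand the H3K4me3 summit lay a median of 199 bp downstream in replicate 1 and 198 bp in replicate 2, and downstream in 87.8% and 87.6% of members. Overlapped regions had medians of 207 and 204 bp, well inside the member quartiles of 121 and 305 bp in replicate 1. Regions reached a median of 559 bp upstream and 1176 bp downstream of the start, against 674 and 1295 bp in overlapped regions.

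**Figure D3:**
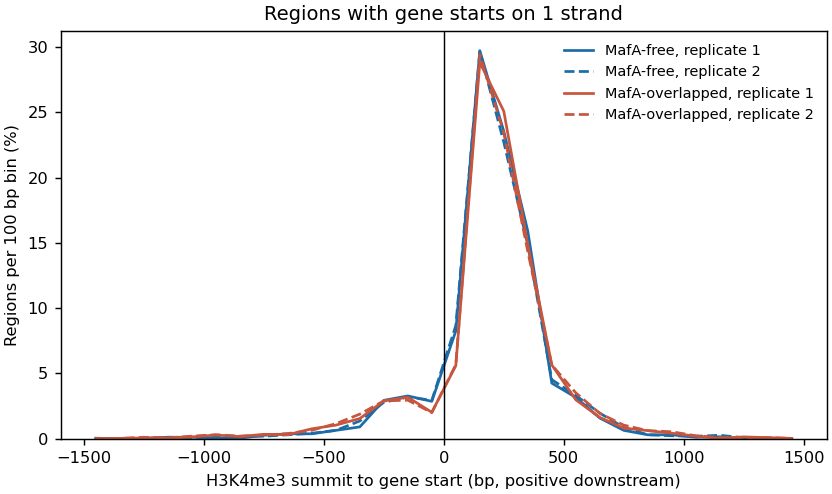
Distribution of the distance from an annotated start to the H3K4me3 summit (bp, positive downstream) in regions with starts on 1 strand, for MafA-free and MafA-overlapped regions in each library. Both classes peak just downstream of the start, with medians of 199 bp for members and 207 bp for overlapped regions in replicate 1.

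Members with starts on both strands were wider and stronger than the others. Their median width was 2436 bp and their median fold enrichments 19.8 and 17.7. Members with starts on 1 strand had 1779 bp, 16.9 and 15.6, and the 1181 members without an annotated start had 1445 bp, 12.1 and 12.0. Enrichment also followed the CpG count of the promoter window. From promoters with under 5 CpG dinucleotides (66 members) to those with 35 or more (538 members), median fold enrichment went from 11.1 to 22.5 in replicate 1 and from 11 to 18.3 in replicate 2. The share of regions free of MafA stayed between 40.6% and 44.6% over the same 5 CpG classes. CpG content thus went with the height of the mark among members but hardly with whether a region was a member.

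Protein-coding genes were somewhat more common among members. A protein-coding gene end lay within 1 kb of the midpoint in 4165 members (93.0%) and 5301 overlapped regions (89.7%), a difference of 3.30 percentage points (interval 2.22 to 4.38) that was 5.74 points under a width limit of 2000 bp. Regions shared by the ends of several genes made up 25.7% of both classes, with a difference between -1.69 and 1.70 points. By nearest gene, the free share was 44.3% at protein-coding genes (3954 of 8923) and 36.0% at long noncoding RNAs (410 of 1138). It was 16.7% at tRNA genes (15 of 90, interval 10.4 to 25.7%), which are short genes read by RNA polymerase III, and most tRNA gene regions thus carried a MafA peak. The 15 free ones were narrow, with a median of 822 bp, and weak, at 6.63 and 7.16. Neighbouring tRNA genes can share sequence and regions, so these are not independent loci.

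Members were found on every chromosome, at somewhat different shares. The lowest share was 34.2% on chromosome 1 (204 of 597 regions) and the highest, leaving out the single region on chromosome Y, was 49.8% on chromosome 17 (270 of 542). The intervals of these 2 chromosomes, 30.5 to 38.1% and 45.6 to 54.0%, did not overlap. The X chromosome had 47.4%.

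A protein-coding gene was counted as marked when it had a narrow gene-end region, and as free when all its narrow regions were MafA-free. Over all protein-coding genes 43.4% of marked genes were free (4572 of 10531), and the lists that follow are read against that share. The intervals are Wilson intervals for counting error, genes that share a region are not independent, and no list was tested.

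Of 76 marked cytosolic ribosomal protein genes 42 were free (55.3%, interval 44.1 to 65.9%). They lay 10.5 to 16.2 points above all genes under each of 13 alternative settings. Their 47 free regions had median fold enrichments of 19.3 and 17.8, above the member medians, with Rps16 at 37.0 and 26.5, Rpl31 at 31.7 and 27.6 and Rpl11 at 28.7 and 24.3. Ribosomal protein genes have many processed copies in the genome, and how reads of such copies were placed is not given in the sources used here. Of 69 mitochondrial ribosomal protein genes 38 were free (55.1%, interval 43.4 to 66.2%), among them Mrps35 (34.2 and 29.4) and Mrpl53 (32.4 and 29.9). Of 47 translation initiation factor genes 27 were free (57.4%, interval 43.3 to 70.5%). Among these, Eif4g2, which drives cap-independent initiation, had 28.1 and 35.1. Eif6, a ribosome assembly factor, had a member region at 29.7 and 28.0 and also an overlapped one, so it is not among the 27.

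For oxidative phosphorylation, free were 24 of 46 marked complex I genes (52.2%), 10 of 18 cytochrome c oxidase genes (55.6%) and 8 of 11 ATP synthase genes (72.7%, interval 43.4 to 90.3%). The strongest were Ndufb6 (29.7 and 28.4) in complex I, Cox5b (28.2 and 30.4) in cytochrome c oxidase and Atp5h (36.2 and 29.6) in ATP synthase. The region of Atp5h is shared with Kctd2, whose start lies nearer its midpoint. The proteasome had 21 of 42 free (50%), led by Psmb2 (30.5 and 27.3), a subunit of the proteasome core. The spliceosome had 31 of 59 (52.5%), led by Lsm7 (37.4 and 29.5) in a region shared with Sppl2b, whose start lies nearer the midpoint. RNA polymerase II with Mediator had 26 of 54 (48.1%). The intervals of the initiation factor, mitochondrial ribosomal, complex I, cytochrome c oxidase, proteasome, spliceosome and polymerase lists all included the 43.4% of all genes, and that of ATP synthase began at it. Under 1 of the 13 settings the share of cytochrome c oxidase genes lay at -4.75 points relative to all genes.

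The Zfp zinc finger genes had 122 of 261 free (46.7%), tRNA processing 23 of 48 (47.9%), Cullin and F-box ligases 25 of 55 (45.5%), peroxisome biogenesis 7 of 15 (46.7%) and cell cycle genes 22 of 54 (40.7%). Examples were Zfp30 (33.5 and 28.7), Dus1l (38.0 and 37.5), a tRNA dihydrouridine synthase, Cul1 (33.2 and 25.2), the ubiquitin ligase scaffold, Pex6 (41.1 and 35.1), a peroxisomal import ATPase, and Aurka (26.6 and 25.2), a mitotic kinase. Aurka shares its region with Cstf1, whose start lies nearer the midpoint. Aminoacyl-tRNA synthetases had 13 of 33 (39.4%), mitochondrial import 8 of 21 (38.1%), nuclear pore 8 of 22 (36.4%) and cilia 8 of 23 (34.8%). DNA repair had 15 of 46 free (32.6%, interval 20.9 to 47.0%), including the damage kinase gene Atm (35.4 and 31.0) and Rad50 (31.8 and 26.3), and DNA replication had 13 of 40 (32.5%, interval 20.1 to 48.0%), including the origin factor gene Orc2 (25.7 and 20.3). The intervals of all the lists named in this paragraph included 43.4%.

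Replication-dependent histone genes stood lowest. Of 41 marked genes 4 were free (9.76%, interval 3.86 to 22.5%), and 8 more lay only in regions at least 4000 bp wide. Relative to all genes their share lay between -46.4 and -30.6 points over the 13 settings. The free genes were H4c18 (8.03 and 13.2), H2ac18 (6.08 and 7.13), and H2ac4 with H3c2, which share a region (7.63 and 8.42). The 28 overlapped histone regions had fold enrichments as low, with medians of 8.16 and 8.55, and were much wider, at 2387 bp against 1039 bp. These genes lie in clusters and have near-identical copies, so reads could be split among them and neighbours are not independent.

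**Figure D4:**
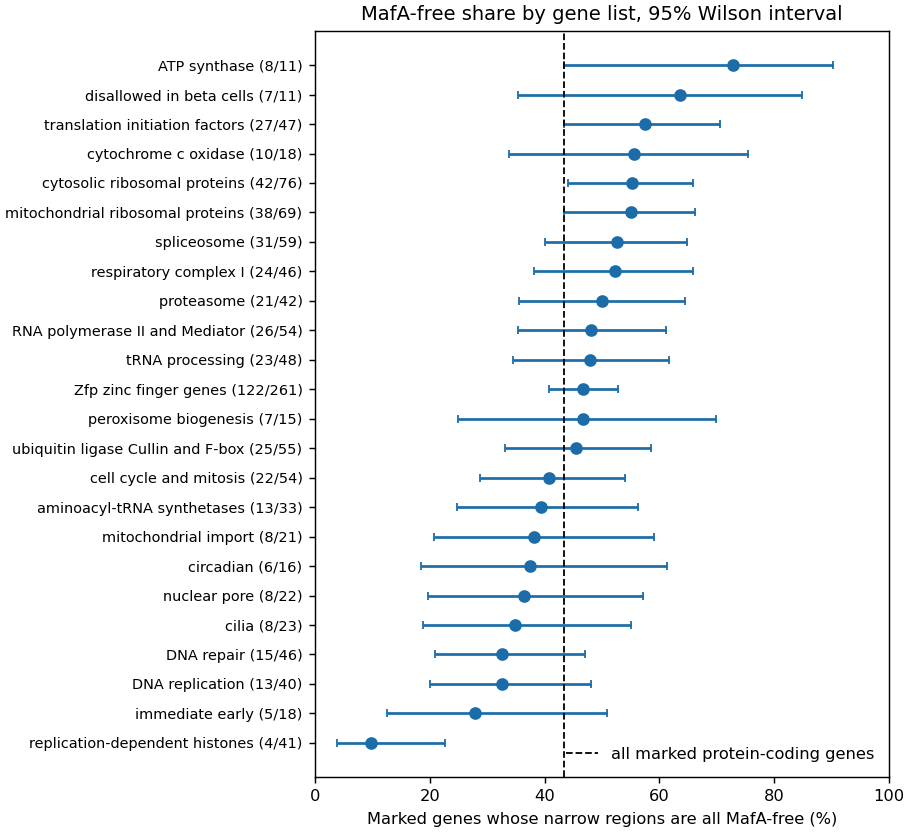
Share of marked genes that were MafA-free (%, linear axis) in each gene list with at least 10 marked genes, with 95% Wilson intervals for counting error and a line at the 43.4% of all protein-coding genes. Replication-dependent histone genes lie lowest at 9.76% and ATP synthase genes highest at 72.7%, and most intervals cross the line.

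Of 35 beta cell genes 9 had narrow gene-end regions and 3 of these were free (33.3%, interval 12.1 to 64.6%, which includes the 43.4% of all genes). The midpoint rule gave no region to 22 of the 35. Another 4 (Foxa2, Mafa, Neurod1 and Pcsk1) had only regions at least 4000 bp wide by the midpoint rule. Among the members were the transcription factor genes Hnf4a (chr2:163506362-163508150), with 26.3 and 22.9, and Rfx6 (chr10:51676453-51679093), with 11.2 and 10.6. They lay 12126 and 6079 bp from the nearest MafA peak. Ins2, Isl1, Ptprn and Syt7 were among the overlapped ones. Under the alternative settings the list ranged from 21.4 points below all genes to 21.2 above.

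Genes that mature beta cells are known to keep low or silent were free in 7 of 11 marked cases (63.6%). The interval, 35.4 to 84.8%, includes the 43.4% of all genes. C1qbp, a mitochondrial protein gene, had 32.5 and 21.8. Rest, the repressor of neuronal genes in non-neuronal cells, had 21.2 and 20.6, and Slc16a1, the monocarboxylate transporter MCT1, had 17.3 and 14.5. C1qbp and Rest were above the member median in both libraries, and Slc16a1 in replicate 1 only. Ndrg2 (11.3 and 8.86), Cxcl12 (9.43 and 9.42), a chemokine gene 881 bp from a MafA peak, and Gas6 (2.80 and 3.43) were below both medians. The region of Parp3, which it shares with Rrp9, had 12.6 and 13.9. H3K4me3 peaks do not measure transcription, and no RNA was analysed here.

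Of 18 marked immediate early genes 5 were free (27.8%, interval 12.5 to 50.9%, which includes 43.4%): Jund (29.6 and 17.5), Mafk (19.8 and 17.4), a small MAF family gene, Nr4a2 (18.4 and 15.6), Fosl1 (11 and 11.4) and Dusp2 (5.11 and 7.15). Nr4a2 shares its region with LOC105244150, whose far end lies nearer the midpoint. Over the 13 settings the list lay between -22.7 and 6.69 points relative to all genes. Another 7, including Jun, Junb and Myc, had only regions at least 4000 bp wide. The circadian list had 6 of 16 free (37.5%), with Per3 at 17 and 16.3 and Ciart at 8.02 and 10.7. Among genes of other islet and non-islet cells, Irx2, an alpha cell factor, was a weak member at 4.94 and 3.76, and Gcg was overlapped.

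Promoter letters were compared in the windows of 300 bases printed for the genes above. Windows whose start lay in a member numbered 4485, those in overlapped regions 6219, and the whole table has 32851. Windows of neighbouring starts share letters. GC content was 62.7% at members and 62.3% at overlapped regions (medians, difference 0.33 points, interval -0.042 to 0.71), against 52.7% in all windows. Members had a median of 23 CpG dinucleotides, overlapped regions 22 and all windows 7. Both classes were richer in CpG than the table as a whole. The GC difference was 1.00 points when freedom from MafA was judged within 500 bp of the summit in H3K4me3 replicate 1. It was 1.33 points under a width limit of 2000 bp.

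MAF letters were scarcer at members. TGCTGAC was present on either strand in 85 member windows (1.90%, interval 1.54 to 2.34%), in 239 overlapped windows (3.84%, interval 3.39 to 4.35%) and in 4.67% of all windows. The shorter TGCTGA, which lies within it, was present in 12.0%, 15.2% and 19.5%. TGACTCAGC, an AP-1 core with a MAF flank, was rare, in 9 member and 20 overlapped windows. With 1 window for each region, the share with TGCTGAC was 1.94% of 3299 members, 2.36% of 1904 regions with a peak of 1 MafA list and 5.2% of 2575 regions with a peak of both. The intervals of the first pair overlapped (1.52 to 2.47% and 1.77 to 3.15%), and that of the last stood apart (4.41 to 6.13%). Members had the lower share in each of the 4 width classes, from 2.17% against 4.20% in the narrowest to 0.971% against 4.17% in the widest. The intervals overlapped in all but the widest class (0.471 to 1.99% and 3.25 to 5.33%), where 7 members held the letters.

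Some other letters differed between the classes and some could not be told apart. CCGGAAG, read by ETS factors, was present in 22.2% of member windows (interval 21.0 to 23.4%), 17.8% of overlapped windows (interval 16.9 to 18.8%) and 8.86% of all windows. That difference depended on width: in the narrowest regions 12.0% of members and 12.5% of overlapped regions held it, and in the widest 25.2% and 15.4%. Under a width limit of 2000 bp the difference was -1.34 points. CCAAT was present in 34.6% of member and 39.9% of overlapped windows (intervals 33.2 to 36.0% and 38.7 to 41.1%). TGACGTCA, the cAMP response element, was present in 2.85% and 3.91% (intervals 2.41 to 3.38% and 3.45 to 4.42%). By width, TGACGTCA stood at 1.21% of members against 2.90% of overlapped regions in the narrowest class and 2.79% against 4.46% in the next. In the wider classes it stood at 4.27% against 4.08% and 3.61% against 3.68%. The intervals overlapped in each class. For the remaining letters the intervals of the classes overlapped. AAGATGGCG, read by YY1, was present in 3.70% and 2.88%, the Sp1 box GGGCGG in 69.1% and 69.8%, the NRF1 letters GCGCATGCG in 4.35% and 4.08%, and the E box CANNTG in 61.9% and 61.6%. In the widest regions the YY1 letters stood apart, at 5.83% against 2.85% (intervals 4.34 to 7.78% and 2.11 to 3.84%). TATAAA was present in 5.33% and 5.77%, against 13.6% of all windows.

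**Figure D5:**
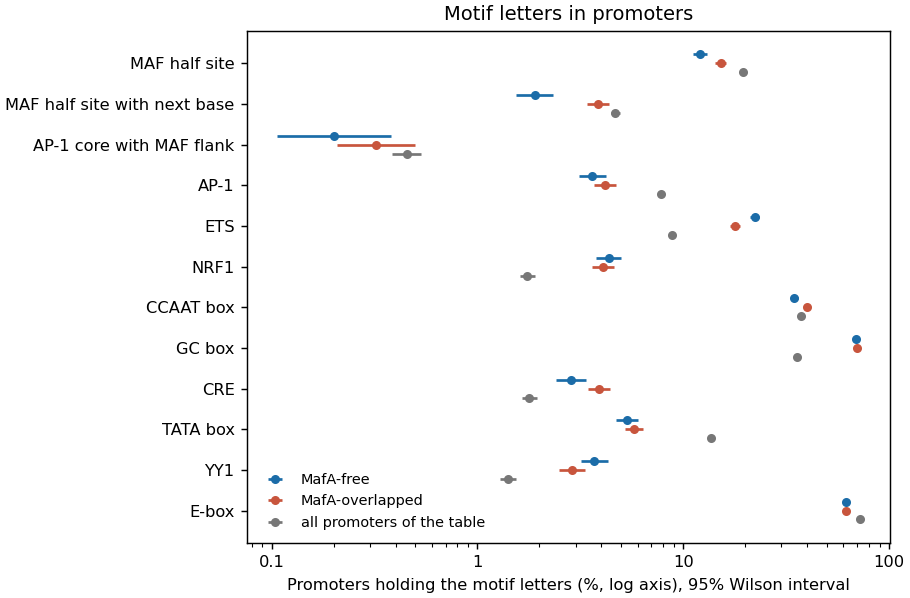
Share of 300-base promoter windows (%) that hold each set of letters on either strand, for starts in MafA-free regions, in MafA-overlapped regions and in all RefSeq promoters, with 95% Wilson intervals. ETS letters are more frequent at members (22.2% against 17.8%), a difference that was -1.34 points in regions under 2000 bp, and TGCTGAC and CCAAT are less frequent.

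Freedom from MafA at the gene end did not extend to the whole gene. Among the 4165 members at protein-coding genes, a peak of MafA replicate 1 lay elsewhere in the gene or within 10 kb of it in 44.2%, one of replicate 2 in 54.5%, and neither in 1740 (41.8%). At the 5301 overlapped regions the same shares were 56.2%, 65.5% and 31.3%. The genes of members were somewhat shorter, with a median of 21.4 kb against 25.6 kb, and the part of gene length in this difference was not tested.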

How the data were processed

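Peak lists of 2 H3K4me3 and 2 MafA libraries were used, grouped by sample title. GRCm38, mm10 and MACS2 are named in the submitters' processing notes. The MACS2 version, aligner, control and duplicate handling are not given in the sources used here. The deposited lists were called on single libraries. Fold enrichment as deposited is a ratio on a linear scale, the deposited p-value and q-value columns hold −log10 values (lowest q near 2.0), and the deposited score was not used. Summit positions are the authors' own.

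Peaks overlapped at 1 bp or more. Where a region held several peaks of a library, the strongest gave its value. Signal and background were solved from fold enrichment, (signal + 1) / (background + 1), and the Poisson p-value. The solving step was run on peaks simulated from its own solutions with the same formula. That checks its arithmetic and not whether the deposited columns follow the formula. It solved at least 99.94% of the deposited peaks. In H3K4me3, 10.3% and 17.2% of peaks had several solutions, and the first found was kept. Gene ends and promoters came from RefSeq tables of GRCm38.p6. The tables give no strand for some genes. Medians were compared per library with an exact sign permutation over the 2 libraries. Shares have 95% Wilson intervals and their differences Newcombe intervals. The interval of the difference in median GC content was instead built from the quartile range and number of windows of each class. It treats windows as independent. Calculations ran in Python 3.11.15 with scipy 1.17.1, pandas 2.3.3 and numpy 2.4.6, and plots were drawn with matplotlib 3.10.9. Named members were the best and lowest ranked, those with replicates furthest apart, those nearest to and farthest from MafA, those at the width limit, and the strongest of each gene list, with members of the beta cell and disallowed lists. Some genes that this rule names are not reported here. Members, lists and letters were chosen with earlier results of these data known.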

Additional observations from a re-analysis of the deposited data

How the results depend on the processing

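The count of 4480 members and the share of 43.1% followed the MafA calls and the width limit. Leaving out each library in turn gave 4603 to 6767 members, 43.6% to 65.1% of regions and 43.7% to 65.9% of marked genes, the highest each time without MafA replicate 2 and its peaks. Without MafA replicate 1 the last 2 were 45.2% and 45.5%. A width limit of 2000 bp gave 2707 members, 49.3% of regions and 50.4% of marked genes. A −log10 q of at least 5 gave 49.0% and 49.2%, and no MafA peak within 1 kb 41.6% and 42.3%. No MafA peak within 500 bp of the H3K4me3 summit of replicate 1 gave 47.4% and 47.9%, and a gene end within 500 bp 44.6% and 45.5%. With a gene end within 2 kb 42.0% of marked genes were free.

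The log2 ratio of fold enrichment, -0.10, became 0.025 without MafA replicate 2 (lowest of the libraries left out, -0.13) and 0.053 over the 3 wider width classes, a comparison chosen after seeing the data. The cause was not tested. The excess at protein-coding genes rose from 3.30 to 5.74 points under 2000 bp and to 4.79 with a gene end within 500 bp. The GC difference was 1.00 points by the summit rule and 1.33 under 2000 bp. The TGCTGAC difference of -1.95 points ranged from -2.74 (without MafA replicate 2) to -1.87 over libraries left out. The CCGGAAG difference of 4.37 points was -1.34 under 2000 bp. The settings for letters were added after seeing the data. The ratios of signal and background kept their sign under every setting run. The comparison over the 3 wider width classes was run for fold enrichment only. In each of those classes the median signal was higher at members and the median background equal or higher.

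No paired analysis was possible because no test compares the H3K4me3 samples with the MafA samples, and the classes of regions were already compared within each library. The IgG libraries were not used here, replicates of unstated origin number 2, and the lists give no sequencing depth, so a region without a MafA peak is one where none was called, not one without MafA.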
